A study of Homo sapiens with 2 samples.

Results

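Chromosome 6 and its alternative haplotypes carried 357 of the 5556 ASH1 peaks deposited for K562 cells: 124 of 910 in replicate 1 and 233 of 4646 in replicate 2. All rows of both lists on chromosome 6, or on a chromosome 6 haplotype of the hg19 assembly, were taken. They were divided by peak midpoint into the neighbouring bands 6p21.1 and 6p12.3 (40500001 to 51800000, called the zone below), the region of the major histocompatibility complex (MHC, 28500001 to 33500000), the rest of the chromosome, and the haplotypes. The limits of the zone were set with its replicate 1 count already known, so that count describes the zone and tests nothing.

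K562 is an established line from a patient with chronic myelogenous leukaemia. Formaldehyde-fixed, otherwise untreated cells were sonicated and immunoprecipitated with in-house rabbit antibodies to the C-terminal end of ASH1, from antibody batch 1 in replicate 1 and batch 3 in replicate 2. Both samples form 1 group with no second condition, and each batch was used once, so an effect of the batch and one of the sample cannot be told apart. No error between repeats of a batch exists, so no test was made. Intervals in brackets are 95% exact binomial (Clopper-Pearson) intervals of a share, which cover counting error only. They treat peaks as independent, which neighbouring peaks are not, so they may be too narrow.

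ASH1 (gene ASH1L) is a trithorax-group protein whose SET domain methylates lysine 36 of histone H3, and trithorax-group proteins are known for keeping active genes active against Polycomb silencing. The title of the series concerns chromatin that carries trimethylated lysine 36 and lysine 9 of H3 at once. As textbook background, 6p21.1 is the band of RUNX2, a transcription factor of bone development, and of VEGFA, a growth factor for blood vessels. The band 6p22.2 holds part of the large histone gene cluster, and the MHC holds the HLA genes of antigen presentation. Gene and promoter tables of the hg19 build were not used here, so no peak is assigned to a gene and no sequence is shown.

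Replicate 1 placed 79 peaks in the zone, 1 in the MHC, 40 in the rest of chromosome 6 and 4 on haplotypes. Replicate 2 placed 22, 1, 206 and 4. The zone took 8.68% of the replicate 1 list (6.93 to 10.7%) and 0.474% of the replicate 2 list (0.297 to 0.716%). In replicate 1 its density was 6.99 peaks per Mb, against 0.258 in the rest of chromosome 6 and 0.268 on the other assembled chromosomes. The corresponding densities in replicate 2 were 1.95, 1.33 and 1.49 peaks per Mb. Outside the zone, therefore, chromosome 6 had a density near that of the other chromosomes in either list, and the zone stood far apart in replicate 1.

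**Figure D1:**
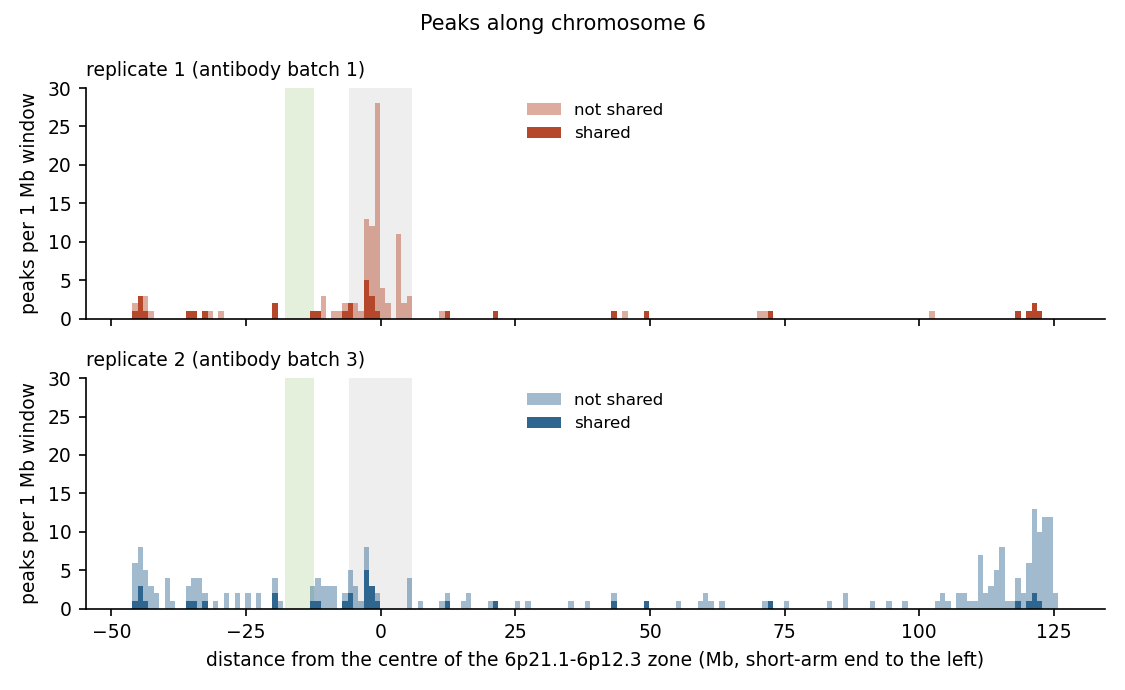
Peaks per 1 Mb window along chromosome 6 in replicate 1 (top) and replicate 2 (bottom), against distance in Mb from the centre of the 6p21.1-6p12.3 zone. Dark bars are peaks that overlap a peak of the other list, pale bars the others, the grey band is the zone and the green band the MHC. Replicate 1 reaches 28 peaks in 1 window of the zone, where its dark bars are few, and replicate 2 is densest at the long-arm end, with up to 13 peaks in a window.

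Within the zone the replicate 1 peaks lay in several dense groups with empty stretches between them. Counted in 1 Mb windows from 41 Mb on, replicate 1 had 2, 1, 13, 12, 28, 4, 2, 0, 11 and 2 peaks, so it rose steeply at 43 Mb, was fullest at 45 Mb, fell to 0 at 48 Mb and rose once more at 49 Mb. Replicate 2 had 3, 1, 8, 3, 2, 0, 0, 0, 0 and 0 in the same windows. The windows at 40 and 51 Mb are cut by the zone's limits. Counted whole, they had 2 and 3 peaks in replicate 1 and 5 and 4 in replicate 2. At 43 Mb replicate 2 followed replicate 1, and it held nothing where the second rise of replicate 1 lay. Over all assembled chromosomes, the 4 fullest windows of replicate 1 were the zone's windows at 45, 43, 44 and 49 Mb, and the fullest window elsewhere held 8.

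Peaks are called shared here where they overlap a peak of the other list by at least 1 bp. Over all assembled chromosomes 466 of 905 replicate 1 peaks (51.5%) and 459 of 4596 replicate 2 peaks (9.99%) were shared. In the zone 10 of 79 replicate 1 peaks were shared, or 12.7% (6.24 to 22.05%), and 10 of 22 replicate 2 peaks, or 45.5% (24.4 to 67.8%). In the rest of chromosome 6 the shares were 23 of 40 (57.5%, 40.9 to 73.0%) and 23 of 206 (11.2%, 7.21 to 16.3%), close to those over all chromosomes. The zone departed from them in opposite ways in the 2 lists: its replicate 1 peaks were seldom matched, while its few replicate 2 peaks were often matched. Both shares rest on the same 10 sites, and the zone was chosen for its replicate 1 density. The opposite departures thus follow in part from that choice. Shared replicate 1 peaks were denser in the zone (0.885 per Mb) than in the rest of chromosome 6 (0.149) or on other chromosomes (0.148). They are part of the replicate 1 peaks by which the zone was chosen, so their density too follows in part from that choice.

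All 10 shared sites of the zone lay in 6p21.1, and 8 of them between 43 and 45 Mb. The score given with each is the authors' peak caller value, read from its form as 10 times the negative log10 of a p-value, and it ranks peaks only within a list. The first site, at 40622647 to 40623224 in replicate 1, stood apart from the others by more than 2 Mb and scored 53.91 in replicate 1 and 115.93 in replicate 2.

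The 2 strongest zone sites of replicate 2 were neighbours. The site at 44010542 to 44013396 scored 100.39 in replicate 1 (rank 147 of 910) and 1111.3 in replicate 2 (rank 52 of 4646). The site at 44149026 to 44150388 scored 134.51 (rank 82) and 1026.42 (rank 60). Scores of the 2 lists come from libraries of unknown depth, so a higher score in one of them shows no change in binding.

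The highest shared replicate 1 score of the zone was 135.37, at 44678253 to 44679500, where replicate 2 had 441.86. Next to it in score among the shared sites not yet named was 43261153 to 43262696, with 121.95 and 321.96. A group of 3 sites lay between 43654829 and 43722326. At 43654829 to 43656459 the scores were 91.64 in replicate 1 and 71.2 in replicate 2, the only shared site of the zone where the replicate 1 score was the larger number. At 43705513 to 43707185 they were 96.44 and 320.27, and at 43721243 to 43722326 they were 56.86 and 328.57.

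The remaining 2 shared sites differed in shape. At 43876418 to 43880701 the replicate 1 peak, 4284 bp wide, was the widest of the zone in either list, with a score of 82.75, and the replicate 2 peak inside it was 2422 bp wide with 129.09. At 45521229 to 45522416 both peaks were narrow, 1188 and 1282 bp, with scores of 57.22 and 472.24. This last site closes the dense stretch of replicate 1, and no replicate 2 peak follows it for 5.68 Mb.

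**Figure D2:**
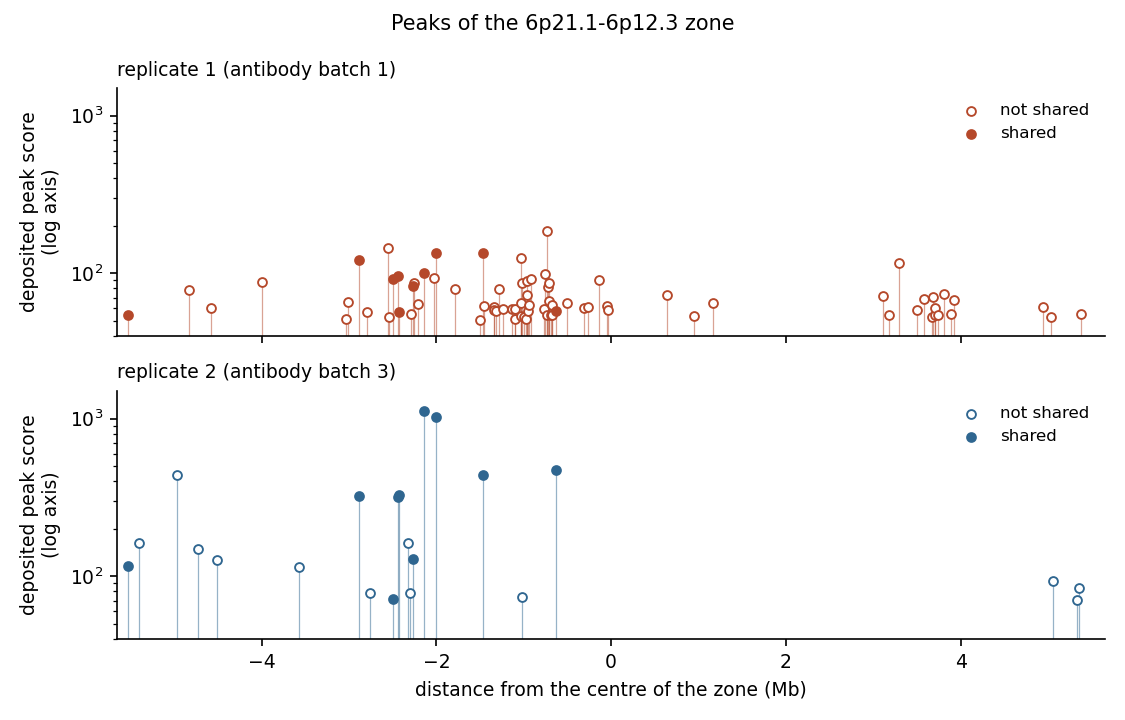
Deposited score (log axis) of each peak of the 6p21.1-6p12.3 zone against distance in Mb from its centre, for replicate 1 (top, 79 peaks) and replicate 2 (bottom, 22 peaks). Filled circles are the 10 shared sites, all left of the centre, and open circles are unshared peaks. The right side of the zone holds open circles only, of which 3 are in replicate 2.

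Of the 69 unshared replicate 1 peaks of the zone, 2 lay within 5 kb of a replicate 2 peak, 15 within 50 kb and 32 within 100 kb, and the median distance was 105 kb (range 2.97 to 1942 kb). The median for unshared replicate 1 peaks was longer elsewhere, at 156.4 kb in the rest of chromosome 6 and 214.3 kb on other chromosomes. Replicate 2 listed nothing between 45522524 and 51205222, a stretch of 5.68 Mb, in which replicate 1 had 24 peaks with scores from 52.41 to 115.3. Of those 24 peaks, 6 scored at least 70, the level at which the replicate 2 list begins. Over the whole zone 50 of the 79 replicate 1 peaks scored below 70. Without the depth of either library, a site that a list lacks can only be called not detectable at that threshold.

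The highest unshared replicate 1 peak of the zone, and of the whole list, was at 45414559 to 45418396, with a score of 186.47 (rank 50 of 910) and a width of 3838 bp (rank 7). The nearest replicate 2 peak was 103 kb away. Second came 43592328 to 43595880, with a score of 144.79 and a width of 3553 bp (rank 8), 59.6 kb from a replicate 2 peak. These 2 peaks were thus both high and broad for their list.

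The third, at 45115998 to 45117572, scored 124.68 and lay 8.38 kb from a weak replicate 2 peak. The fourth was the only one of the 5 highest in 6p12.3, at 49445304 to 49446702, with a score of 115.3 and 1760 kb between it and the nearest replicate 2 peak. The fifth, at 45398132 to 45399930, scored 99.28 and lay in the same run as the highest one. The widest unshared peaks after the first 2 were 2798 bp (43892320 to 43895117, score 86.9), 2085 bp (43936440 to 43938524, 64.05) and 2070 bp (45228168 to 45230237, 91.71). All 5 of the widest lay in 6p21.1.

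High unshared peaks of replicate 1 were concentrated here. Among the 337 replicate 1 peaks of the assembled chromosomes that reached a score of 70, 76.9% overlapped a replicate 2 peak, but in the zone 7 of 29 did (24.1%), and in the rest of chromosome 6 12 of 16 (75%). Of the 78 unshared ones, 22 were in the zone (28.2%, 18.6 to 39.5%). At any score the zone held 15.7% of the unshared replicate 1 peaks. It was chosen for its replicate 1 density, so its part of the unshared peaks follows in part from that choice. Where the score reached 100, in 143 peaks, 92.3% overlapped one of replicate 2, and 4 of the 11 unshared peaks lay in the zone, where 4 of 8 were shared. None of the 17 unshared replicate 1 peaks of chromosome 6 outside the zone reached 100. On other chromosomes this was similarly rare, with 7 of 353.

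The 12 unshared replicate 2 peaks of the zone had lower scores than the shared ones, with a median score of 103.9 against 325.3. Over the whole replicate 2 list the medians likewise were 137.1 for unshared and 355.2 for shared peaks. Among the 12 unshared zone peaks, scores and widths were as follows. The highest was at 41186436 to 41187527, with a score of 440.76 (rank 455 of 4646), 136 kb from a replicate 1 peak. The next was 40743803 to 40744844 with 162.45, followed by 43827947 to 43829628 with 162.06, 41421344 to 41422767 with 147.89 and 41643381 to 41645061 with 126.24. Thus 4 of the 5 highest lay below 43 Mb, in the part of the zone where replicate 1 was sparse. The widest of the 12 were the peak from 43827947 (1682 bp), the peak from 41643381 (1681 bp) and 45125954 to 45127593 (1640 bp, score 73.84). The last of these sits inside a long run of replicate 1 peaks, 2.97 kb from the nearest, without touching any. The other 2 of the 5 widest were 43394661 to 43396251 (1591 bp, score 77.77) and the peak from 41421344 (1424 bp).

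Spacing set the zone apart in replicate 1 and not in replicate 2. The median distance between neighbouring midpoints in replicate 1 was 46.0 kb in the zone (quartiles 16.04 and 119.2 kb), 902.5 kb in the rest of chromosome 6 and 762.9 kb on the other chromosomes. In replicate 2 the medians were 222.2, 179.8 and 159.8 kb. Of the 78 distances in the zone in replicate 1, 16 were at most 10 kb (20.5%), compared with none of 37 in the rest of chromosome 6 and 20 of 762 elsewhere (2.62%). The zone was chosen for its density, so short distances in it follow in part from that choice. With only peaks of at least 70 kept, the median in the zone was 144 kb.

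**Figure D3:**
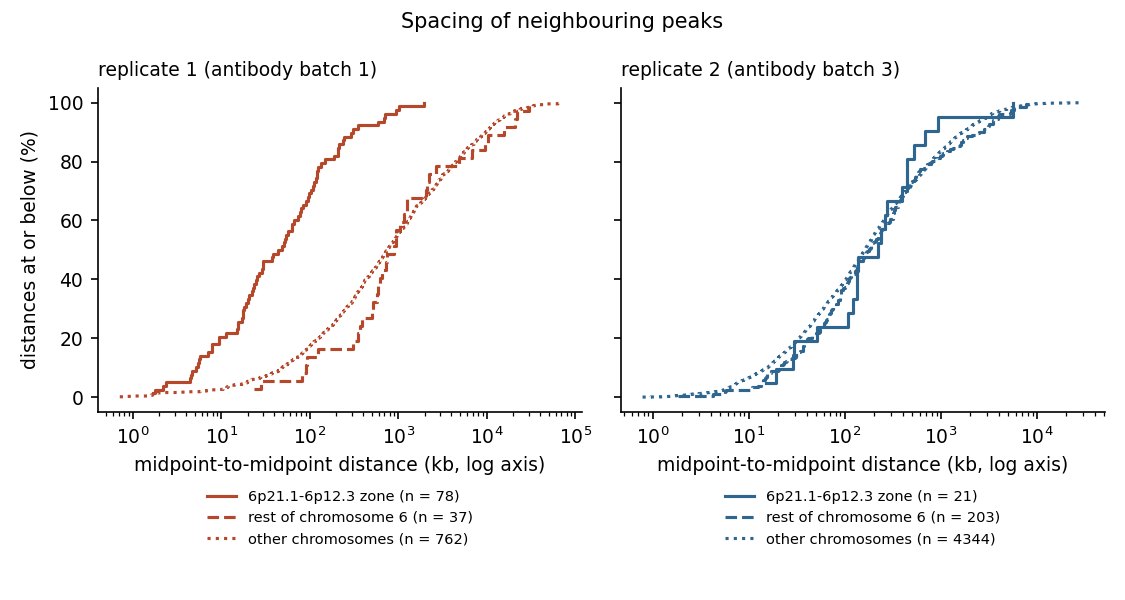
Cumulative share (%) of midpoint-to-midpoint distances (kb, log axis) between neighbouring peaks in replicate 1 (left) and replicate 2 (right). Solid lines are the 6p21.1-6p12.3 zone, dashed lines the rest of chromosome 6 and dotted lines the other chromosomes. In replicate 1 the zone's line lies far left of the others (median 46.0 against 902.5 and 762.9 kb). In replicate 2 the 3 medians are closer (222.2, 179.8 and 159.8 kb), and the zone's line rests on 21 distances. Of these, 23.8% were at most 100 kb, against 37.4% in the rest of chromosome 6 and 39.3% on the other chromosomes.

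The closest neighbours were nearly continuous. The peak at 45114594 to 45115612 (score 53.12) ended 0.385 kb before the high peak at 45115998, and the peak at 49853504 to 49854539 (54.09) ended 0.388 kb before 49854928 to 49856705 (60.49). The pair from 45433822 and 45436057 (66.45 and 87.09) was 0.932 kb apart. The first of these pairs joins a low peak to one of the highest of the zone. At the other extreme, the widest gap in replicate 1 ran from 47320753 to 49262144 (1941 kb). The next ran from 50075569 to 51087997 (1012 kb), in 6p12.3 like the first, and from 42159560 to 43110865 (951.3 kb).

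Chained at gaps of at most 100 kb, the 3 longest runs of replicate 1 over all assembled chromosomes lay in the zone. The longest ran from 45019275 to 45230237 (211.0 kb) with 14 peaks at a mean step of 16.2 kb, and none of the 14 was shared. The second, from 45375922 to 45522416 (146.5 kb), had 11 peaks, of which the last was shared. It holds the highest unshared peak. The third, from 49654790 to 50075569 (420.8 kb) in 6p12.3, had 10 peaks, all unshared, with a median score of 59.35. Outside the zone the longest replicate 1 runs had 6 peaks, on chromosomes 5 and 12, and replicate 2 had runs of up to 32, on chromosome 7, but none above 3 in the zone. With gaps of up to 200 kb the longest zone run of replicate 1 was 39 peaks and with gaps of up to 50 kb it was 11, against 6 and 5 outside the zone.

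At the median, peaks of the zone were wider than others of the list and had like scores. Median width in replicate 1 was 1112 bp in the zone (quartiles 865.5 and 1357 bp), 967 bp in the rest of chromosome 6 and 899 bp on other chromosomes. Among unshared peaks the medians were 1048, 998 and 765 bp. Median score was 61.8 in the zone and 58.2 in the rest of chromosome 6, against 61.8 on other chromosomes. Widths of at least 2000 bp occurred in 8 of the 79 zone peaks and in 49 of the whole list. In replicate 2 the zone median was 1353 bp, the rest of chromosome 6 stood at 1036 bp and other chromosomes at 1063 bp. Shared zone peaks were the wider ones, with medians of 1454 bp in replicate 1 and 1718 bp in replicate 2, against 1048 and 1178 bp for the unshared. The same held over the whole lists, with medians of 1013 and 1490 bp for shared peaks and 805 and 1040 bp for unshared ones.

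**Figure D4:**
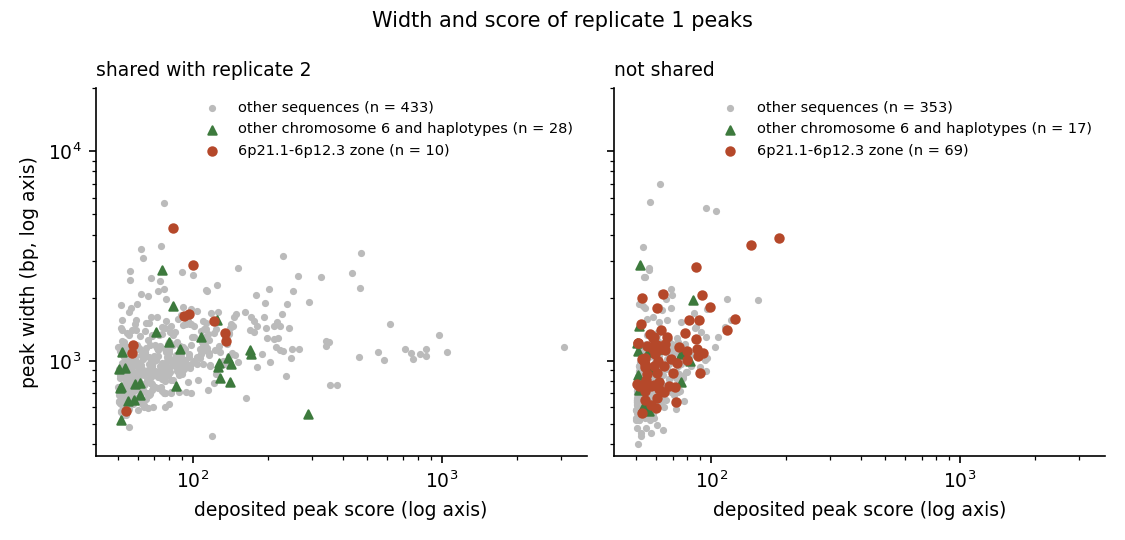
Peak width (bp, log axis) against deposited score (log axis) for replicate 1 peaks that were shared (left) and not shared (right). Orange circles are the zone, green triangles the other chromosome 6 and haplotype peaks and grey points all other sequences. Among unshared peaks, the 2 orange circles at the upper right are the 3838 and 3553 bp peaks with scores of 186.47 and 144.79.

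The far limit of the zone fell in sparse sequence in replicate 1, and the other limits had peaks closer by. In replicate 1 the last peak before it was 40317842 to 40318817 (score 126.81, shared) and the first inside it 40622647 to 40623224 (53.91, shared). At its far end the last peak inside was 51527586 to 51528393 (54.79, unshared) and the next on the chromosome 57257269 to 57258183 (56.04, unshared), 5458 kb beyond the limit. In replicate 2 the peaks on either side of the start were 40477233 to 40478238 (110.89, unshared), 22.26 kb before the limit, and 40622519 to 40623376 (115.93, shared). At the end they were 51506923 to 51508171 (84.04) and 51913741 to 51914534 (73.72), both unshared, the second 114.1 kb beyond the limit. With the zone widened by 1 Mb at each end, its share of the replicate 1 list was 8.90% in place of 8.68%.

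On the primary chromosome the MHC had a single peak in each list over its 5 Mb, or 0.2 per Mb. That is near the replicate 1 density of the rest of chromosome 6 (0.258) and below that of replicate 2 (1.33). The 2 peaks overlapped: 33290380 to 33291341 in replicate 1 (962 bp, score 141.64, rank 72 of 910) and 33290352 to 33291267 in replicate 2 (916 bp, 277.84, rank 1078 of 4646). It lies in 6p21.32, 209 kb inside the upper limit. Beyond that limit the next peaks were 34038664 to 34041359 in replicate 1 and 33677402 to 33679264 in replicate 2. Below the MHC the nearest were 26760777 to 26762348 and 27162383 to 27163230.

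The 4 haplotype sequences with peaks, alternative assemblies of the MHC, each held 1 peak per list, and all 4 were shared. On the cox haplotype the replicate 1 peak was at 4734231 to 4735163 and on the dbb haplotype at 4571897 to 4572451. On mcf it was at 4764090 to 4764884 and on qbl at 4522578 to 4523608. Replicate 1 scores were 126.43, 289.95, 140.83 and 138.17 in that order and replicate 2 scores 258.18, 181.08, 212.84 and 384.76. The dbb peak and the zone site at 43654829 to 43656459 were the only 2 of the 38 shared sites where the replicate 1 score was the larger number, as it was at 24 of the 433 off chromosome 6. Midpoints of the 2 lists were 8.5 to 85.5 bp apart. Whether these peaks share reads with each other or with the single MHC peak was not tested, since reads that match several haplotypes can be placed on any of them.

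**Figure D5:**
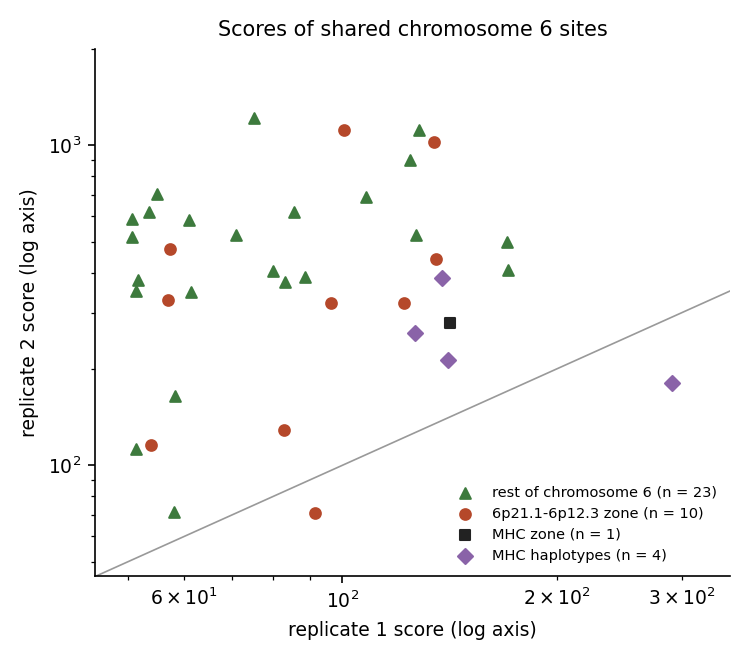
Replicate 2 score against replicate 1 score (both log axes) for the 38 shared sites of chromosome 6 and its haplotypes, with a grey line where both numbers are equal, although the scales of the lists may differ. Green triangles are the rest of chromosome 6 (23 sites), orange circles the 6p21.1-6p12.3 zone (10), the black square the MHC (1) and purple diamonds the haplotypes (4). All lie above the line except 1 zone site and the dbb haplotype site.

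In the rest of chromosome 6 the 23 shared sites had a median replicate 2 score of 515.3, against 325.3 for the 10 zone sites and 353.3 for shared peaks of the other chromosomes. They were not all high in that list: the site at 89772889 to 89773638 scored 71.68 (rank 4543 of 4646) and the one at 1926856 to 1927770 scored 112.51 (rank 3009). The number was larger in replicate 2 at all 23, as it was at 409 of the 433 shared sites off chromosome 6. The replicate 2 peak was also the wider one in all 23, in 7 of the 10 zone sites and in 400 of the 433. Midpoints lay a median of 66 bp apart at these 23 sites, 129.5 bp in the zone and 92 bp at the 433 sites off chromosome 6.

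By rank in both lists the highest of these sites was on the long arm in 6q22.1, at 118244914 to 118245744, with scores of 128.3 in replicate 1 and 1114.19 in replicate 2. Band 6p22.2 held 2: 26760777 to 26762348 (124.52 and 897.24) and 26670223 to 26671518 (108.09 and 690.55). Replicate 2 had 4 peaks in that band within 129.6 kb, with scores from 363.95 to 897.24. The unshared ones were 26797965 to 26799714 (822.31) and 26739044 to 26741041 (363.95). Of these 4 peaks, replicate 1 thus lists 2.

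Below the zone's start, 2 more sites in 6p21.2 were shared. At 39812474 to 39813548 the scores were 170.94, the highest of replicate 1 on the chromosome outside the zone, and 406.81, and at 40317842 to 40318817 they were 126.81 and 522.31. In 6p25.3, near the short-arm end, 1053527 to 1054650 scored 170.07 and 497.47. The site at 34038664 to 34041359 in 6p21.31 scored 75.14 and 1214.37, the highest replicate 2 score among the shared sites of the chromosome, and was 2696 bp wide in replicate 1. The other 3 of the 10 highest by that rank were 58198903 to 58199657 in 6p11.2 (85.4 and 617.09), 11491083 to 11492219 in 6p24.2 (88.67 and 386.35) and 13590400 to 13591632 in 6p23 (79.99 and 403.86).

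Unshared replicate 1 peaks in the rest of chromosome 6 resembled those of other chromosomes in number and score. There were 17, or 0.110 per Mb, with a median score of 55.7, against 0.121 per Mb and 56.2 elsewhere, and none lay closer than 20.45 kb to a replicate 2 peak. The highest were 3731202 to 3733148 in 6p25.2 (84.14), 116608539 to 116609536 in 6q22.1 (82.3) and 148485482 to 148486561 in 6q24.3 (75.47). On the long arm, 110.12 Mb long, replicate 1 had 13 peaks, of which 9 were shared.

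Replicate 2 peaks outside the zone gathered towards the chromosome ends. The last 5 Mb of the long arm held 53 replicate 2 peaks (10.6 per Mb) and 4 of replicate 1 (0.8 per Mb), and all 4 were shared. In the first 5 Mb the numbers were 24 (4.8 per Mb) and 9 (1.8 per Mb), of which 5 were shared. The rest of chromosome 6 as a whole had 1.33 per Mb in replicate 2 and 0.258 in replicate 1. The band 6q27 alone had 57 replicate 2 peaks with a median score of 211.5, and the 90 Mb from 60 to 150 Mb had 28. Shared sites in 6q27 lay at 166162495, 167196959, 167927816 and 168051978 (replicate 1 starts), with replicate 1 scores of 50.57 to 60.99, near the threshold of that list, and replicate 2 scores of 350.43 to 616.19.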

How the data were processed

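Chromatin immunoprecipitation sequencing peaks were deposited as 1 list per sample. BWA, MACS and the builds hg19 and GRCh38 are named, per the submitters' processing notes. Which versions, settings or control library the authors chose is not stated in the sources used here. Coordinates were read as hg19, since no peak ended beyond its hg19 chromosome. The deposited score is the authors' value per peak. It was ranked and summarised within a list, and at shared sites both scores are set side by side only as a description, since the scales of the lists may differ. Replicate 1 scores start at 50.03 and replicate 2 scores at 70.02, and depth is unknown. Other deposited columns give start and end, printed 1-based. No correction was made for copy number or mappability.

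Zones, overlaps, spacing, widths and runs were computed with Python 3.11.15, numpy 2.4.6, pandas 2.3.3 and scipy 1.17.1, figures with matplotlib 3.10.9, and bands taken from circlize 0.4.16. Shares of shared peaks over all chromosomes leave out haplotype and unplaced sequences, a denominator chosen after the values were seen. The routines were tested on simulated lists. The members, zones and lists were chosen with earlier results of these data known. Peaks named were every shared site of the zone, the MHC and the haplotypes, the 10 highest-ranked shared sites elsewhere (mean percentile of score in both lists), and the highest or widest unshared peaks (5 per list in the zone, 3 elsewhere). Other peaks named, and the windows, runs and stretches, were chosen after their values were seen. Genes and sequences, which that rule also covers, were not used here for want of an hg19 genome. Alternatives changed the overlap, the score threshold, merging within 10 kb and the zone's limits.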

Additional observations from a re-analysis of the deposited data

How the results depend on the processing

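Of 54 alternative values, 44 stayed within the interval of the reported value, or within 1.5 times for counts. Those intervals treat peaks as independent. The zone's share of either list did so under all 4 alternatives (7.23 to 8.90% in replicate 1, 0.474 to 0.581% in replicate 2). The threshold of 70 removes no replicate 2 peak, since that list starts at 70.02. The zone's share of that list, its spacing and its width there could not change under it, yet count among the 44. Merging within 10 kb likewise joined no replicate 2 peaks of the zone, where the closest were 12.93 kb apart. When only peaks that scored 70 or more were kept, the shared share of replicate 1 zone peaks was 24.1% in place of 12.7%, their median spacing 144 kb in place of 46.0 kb and their median width 1363 bp in place of 1112 bp. This limit removes 50 of the 79 peaks. Outside the zone it moved the shared share of replicate 1 from 57.5 to 75% and that of replicate 2 from 11.2 to 5.83%. In the zone the shared share of replicate 2 fell from 45.5 to 31.8% (7 of 22), within its wide interval of 24.4 to 67.8%. The frequent matching of replicate 2 zone peaks thus rests in part on replicate 1 peaks below 70. Among the upper 50% of peaks by score, the median score of replicate 1 zone peaks was 82.3 in place of 61.8, as that choice must raise it. For replicate 2 zone peaks it was 328.6 in place of 138.5, a rise forced in the same way. That value counts among the 44 only because its interval was wide (84.0 to 329). Both lists together gave 91 distinct sites in the zone, 223 in the rest of chromosome 6 and 1 in the MHC. With 1 replicate left out, the numbers were 22 to 79, 40 to 206 and 1. Sharing needs both lists and has no value with a replicate left out. The 2 settings for the longest run and the 1 for windows were added after seeing the data. No paired analysis was possible because both samples belong to the same group.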

Other observations

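Replicate 2 also listed 4 peaks in the centromere bands of chromosome 6, where replicate 1 listed none. The peak at 58773451 to 58780330 in 6p11.1 was 6880 bp wide with a score of 2846.39, rank 6 of 4646 and the highest score of chromosome 6 in either list. Those in 6q11.1 began at 61910390 (4546 bp, score 518.34), 62283668 (992 bp, 301.82) and 62663771 (2066 bp, 280.47). The nearest replicate 1 peak was 573.8 kb from the first and 3711 to 4464 kb from the others. The next unshared replicate 2 peaks in score outside the zone were 157730916 to 157735809 in 6q25.3 (4894 bp, 925.51) and the 6p22.2 peak at 26797965.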
